A study of Mus musculus with 2 samples.

Results

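The amino acid stress response and the tRNA synthetases were examined as 40 named mouse genes: 11 stress regulators and effectors, 9 enzymes that make amino acids or one-carbon units, 8 amino acid transporters and 12 cytosolic tRNA synthetases. They were chosen by symbol or synonym and found on the arrays through the RefSeq transcript given for each probe. Of the 40, 39 had a probe, out of 20884 genes named in all, and Pycr1 was not analysed here. RNA came from differentiated small proliferative adipocytes (SPAD) and from differentiated stromal vascular cells (SVCD), with 1 array each. Both cell populations were taken from collagenase-digested epididymal fat of male C57/BL mice. SPAD were cultured from cells that first floated and then sedimented when the floating layer was spun at 226 × g for 3 min, and SVCD from the lower phase of the first, weaker spin at 9 × g for 1 sec. At 90% confluency each culture received insulin, dexamethasone and IBMX, which together start adipocyte differentiation, for 3 days, and was kept for 2 more days without them. The labels give no number of animals or cultures, and the short description fields of the samples leave out the word differentiated, so the titles and the protocol were followed.

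Cells that run short of amino acids, or are otherwise stressed, phosphorylate the initiation factor eIF2 through one of several kinases. General protein synthesis then slows, while the mRNA of the transcription factor ATF4 is translated more. ATF4 pairs with other bZIP proteins, binds a composite element of C/EBP and ATF sites in target promoters and switches on genes that synthesise amino acids, import them and join them to tRNA. Other targets, among them CHOP (Ddit3) and GADD34 (Ppp1r15a), feed back on the response. In fat this factor is known from mice lacking Atf4, which are lean.

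Promoter sequences are shown because ATF4 is known to act through such an element in several of the members, such as Asns. Promoters of RefSeq genes (build GRCm38.p6, from 250 bases before to 50 bases after the gene start) were searched for the core TGATGNAA on either strand, which reads TTNCATCA on the other. The table held 31 of the 40 members, and 12 of these 31 (38.7%) had a match, against 1219 of all 27025 genes in the table (4.51%). Counted by promoter, 12 of 36 member promoters (33.3%) and 1304 of all 32851 (3.97%) had one. Because several members are known for such an element, the higher share among members partly comes with the choice of genes. Matches of 11 of these 12 members lie within the following 30-base stretches, each written 5′ to 3′ in the direction of its gene, with the core in capitals.
Asns (chr6:7693214-7693243, - strand): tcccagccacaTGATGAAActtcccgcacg
Yars (chr4:129189895-129189924, + strand): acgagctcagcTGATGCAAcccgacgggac
Pycr1 (chr11:120643833-120643862, - strand): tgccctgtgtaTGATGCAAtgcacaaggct
Chac1 (chr2:119351038-119351067, + strand): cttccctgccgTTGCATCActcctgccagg
Atf3 (chr1:191183425-191183454, - strand): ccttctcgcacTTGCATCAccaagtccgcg
Nupr1 (chr7:126625562-126625591, - strand): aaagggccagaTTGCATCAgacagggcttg
Trib3 (chr2:152344028-152344057, - strand): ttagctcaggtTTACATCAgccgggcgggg
Slc1a4 (chr11:20332699-20332728, - strand): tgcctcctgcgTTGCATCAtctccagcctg
Gars (chr6:55037960-55037989, + strand): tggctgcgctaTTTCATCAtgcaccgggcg
Iars (chr13:49682126-49682155, + strand): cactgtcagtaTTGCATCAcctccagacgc
Tars (chr15:11399655-11399684, - strand): caggagtcccgTTGCATCAgctggttagct
In Asns, whose element is a textbook case of amino acid control, the match began 23 bases before the start. Those of Atf3 and Nupr1 both began 110 bases before it. The matches of Trib3, Iars and Yars began after the start, by 14, 7 and 3 bases. A match describes these letters only and is no evidence of binding in these cells.

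The 250 bases before the start are given for Chac1, the member with the largest difference between the arrays, and for Asns, with the core in capitals again.
Chac1 upstream (chr2:119350992-119351241, + strand): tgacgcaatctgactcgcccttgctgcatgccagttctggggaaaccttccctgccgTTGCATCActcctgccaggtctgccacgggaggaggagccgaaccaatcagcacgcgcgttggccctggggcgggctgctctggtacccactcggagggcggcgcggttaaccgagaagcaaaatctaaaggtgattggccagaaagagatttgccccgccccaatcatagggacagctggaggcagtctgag
Asns upstream (chr6:7693210-7693459, - strand): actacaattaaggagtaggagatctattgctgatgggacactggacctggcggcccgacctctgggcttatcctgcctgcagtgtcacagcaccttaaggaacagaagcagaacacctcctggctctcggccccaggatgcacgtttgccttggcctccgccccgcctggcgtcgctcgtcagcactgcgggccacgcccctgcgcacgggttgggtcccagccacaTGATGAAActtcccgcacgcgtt
The Chac1 match lies far upstream, at 193 bases before the start.

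Counting a log2 difference of at least 1 (2-fold) among genes well above background on both arrays, 16 of 39 members (41.0%) were higher in SPAD, where 14.4% of all 14074 genes were. By the same rule 1 of 39 (2.56%) was lower in SPAD, where 13.3% of all genes were. Of the stress regulators and effectors 9 of 11 were at least 2-fold higher in SPAD, of the amino acid transporters 5 of 8, of the synthetases 1 of 12 and of the synthesis enzymes 1 of 8, with 1 more of these enzymes lower. With scaling to the Agilent spike-ins (control RNAs) these counts were 5, 3, 0 and 0 higher, and 4 synthesis enzymes lower. Under that scaling 5.19% of all genes were higher and 38.1% lower. The median log2 difference (SPAD minus SVCD) was 0.81 over the members and 0.06 over all named genes. It was 1.63 for the stress regulators, 1.47 for the transporters, 0.32 for the synthetases and -0.20 for the synthesis enzymes, and with spike-in scaling, which turns the synthetase median to -0.51, the others were 0.79, 0.63 and -1.04 in that order. With 1 array per group no difference could be tested, and the counts and medians are descriptions of these arrays.

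All values rest on processed signal, the background-subtracted brightness of a probe, and each log2 difference is taken after scaling an array to its 75th percentile. That percentile was a signal of 622 in SPAD and 678 in SVCD, so a difference of 0 corresponds to a slightly lower signal in SPAD. The error given after ± is that of the difference, joined over the 2 arrays from the SD between repeat spots of similar signal. For each array this SD is divided by the square root of the probe's number of spots. A probe printed 10 times, such as that of Slc7a8 below, thus has a smaller error than a probe with 1 spot. It covers spot-to-spot error only, not cultures, RNA extraction or labelling. Scaling to the Agilent spike-ins instead lowered every difference by 0.84 and the median of all named genes to -0.77, and it moved the share of higher genes among all those 2-fold apart from 52.0% to 12.0%. Under that scaling 8 members passed 2-fold upward and 4 downward in SPAD, where 5.19% of all genes passed upward and 38.1% downward. The median of the members stood 0.74 above that of all genes, against 0.75 in the main values.

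**Figure D1:**
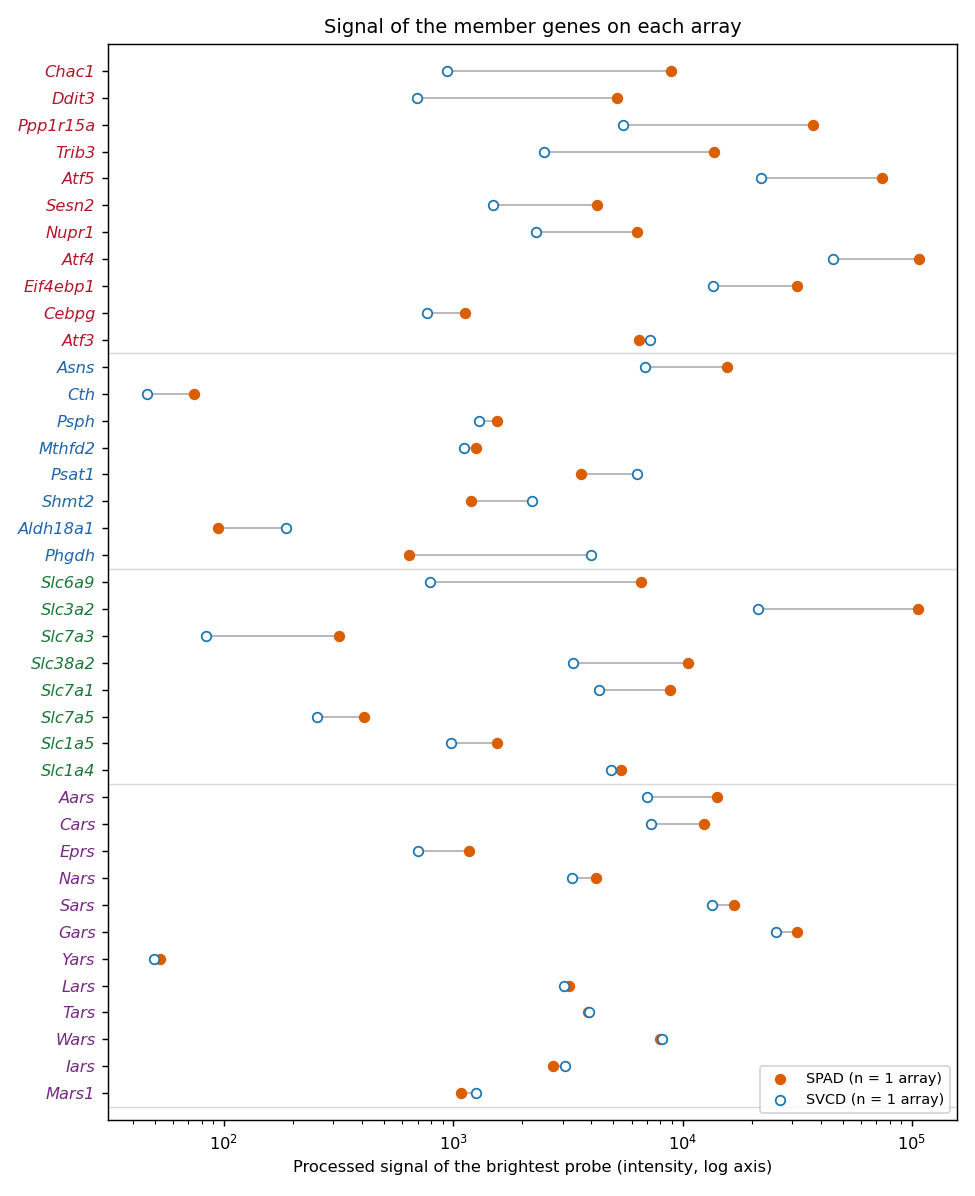
Processed signal (horizontal log axis, intensity) of the brightest probe of each of the 39 members, with the SPAD array as filled and the SVCD array as open points (1 array each) and genes grouped by role. The signals range from 52.9 (Yars) to 107243 (Atf4) in SPAD and from 46.2 (Cth) to 45217 (Atf4) in SVCD.

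**Figure D2:**
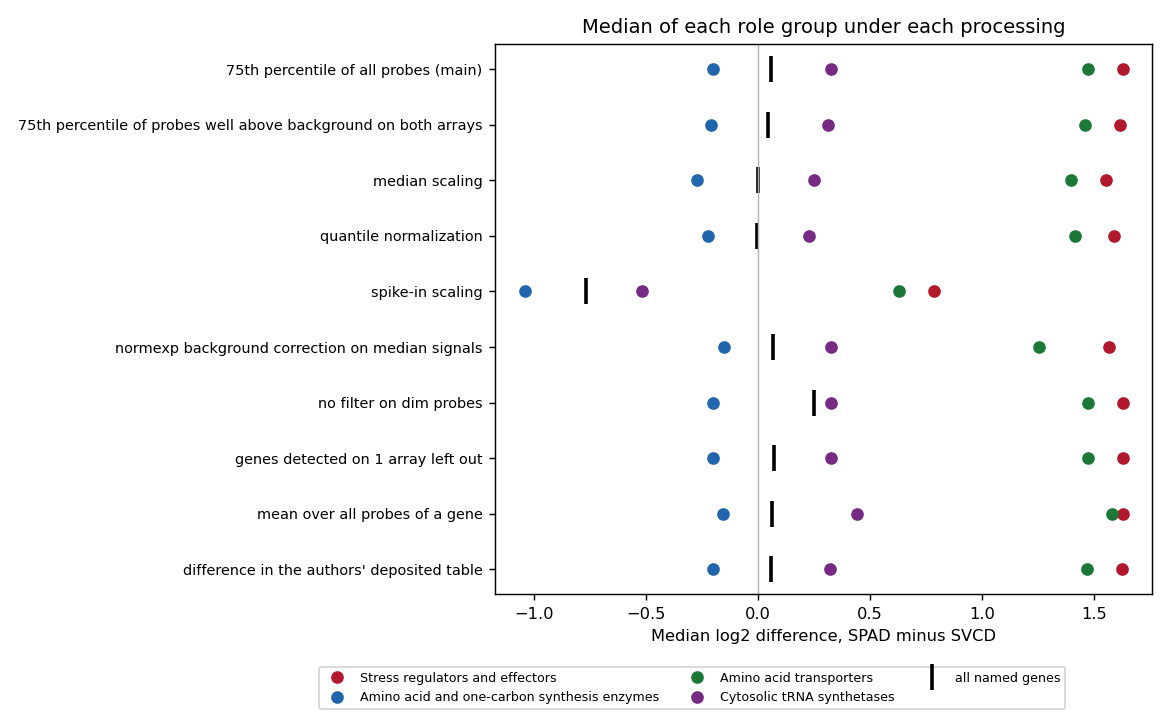
Median log2 difference (SPAD minus SVCD, horizontal axis) of the 4 role groups (coloured points) and of all named genes (black bars) under the main values and 9 alternatives (rows). Spike-in scaling moves all medians down together, the median of all genes to -0.77, and in every row the stress regulators and effectors and the transporters stand above the synthetases and the synthesis enzymes.

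Among the regulators, Atf4 itself had a signal of 107243 in SPAD, against 45217 in SVCD. This made it 2.59-fold higher in SPAD (log2 1.37 ± 0.08), and its second probe gave 1.79. Atf5, a bZIP factor closely related to ATF4, had 73845 in SPAD and 22026 in SVCD (3.66-fold higher, 1.87 ± 0.08). Cebpg, a bZIP partner of ATF4, was less than 2-fold apart, with 1122 in SPAD and 769 in SVCD (0.67 ± 0.08). Atf3, another stress-induced bZIP factor, had 6463 in SPAD and 7196 in SVCD, a log2 difference of -0.03 ± 0.08 that lies within the spot error.

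The largest differences of the group were in genes known to act downstream of ATF4. Chac1, which encodes an enzyme that degrades glutathione, had a signal of 8896 in SPAD, against 937 in SVCD (10.4-fold higher, 3.37 ± 0.08). Of all 14074 genes, 1.12% had a difference as high. Ddit3, which encodes the stress factor CHOP, had 5189 in SPAD and 695 in SVCD (8.14-fold higher, 3.03 ± 0.08). For Trib3, a pseudokinase that restrains ATF4 and AKT, the signals were 13768 in SPAD and 2490 in SVCD (6.03-fold higher, 2.59 ± 0.08). Ppp1r15a, which encodes GADD34, the subunit that directs a phosphatase to eIF2, was at 37089 in SPAD and 5499 in SVCD (7.36-fold higher, 2.88 ± 0.08). These 4 genes were all among the highest 2.44% of differences over all genes.

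The remaining effectors were about 3-fold higher or less. Sesn2, an inhibitor of the growth kinase mTORC1 that senses leucine, had 4231 in SPAD and 1493 in SVCD (3.09-fold higher, 1.63 ± 0.08). Nupr1, a small chromatin protein induced by stress, had 6343 in SPAD and 2290 in SVCD (3.02-fold higher, 1.60 ± 0.08). Eif4ebp1, whose product blocks cap-dependent translation, had 31480 in SPAD and 13554 in SVCD (2.53-fold higher, 1.34 ± 0.08). In all, 9 of the 11 regulators and effectors passed 2-fold upward in SPAD and 0 downward. Of the 9, Atf4, Sesn2, Nupr1 and Eif4ebp1 fell below 2-fold with spike-in scaling, at 0.53, 0.79, 0.76 and 0.50.

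**Figure D3:**
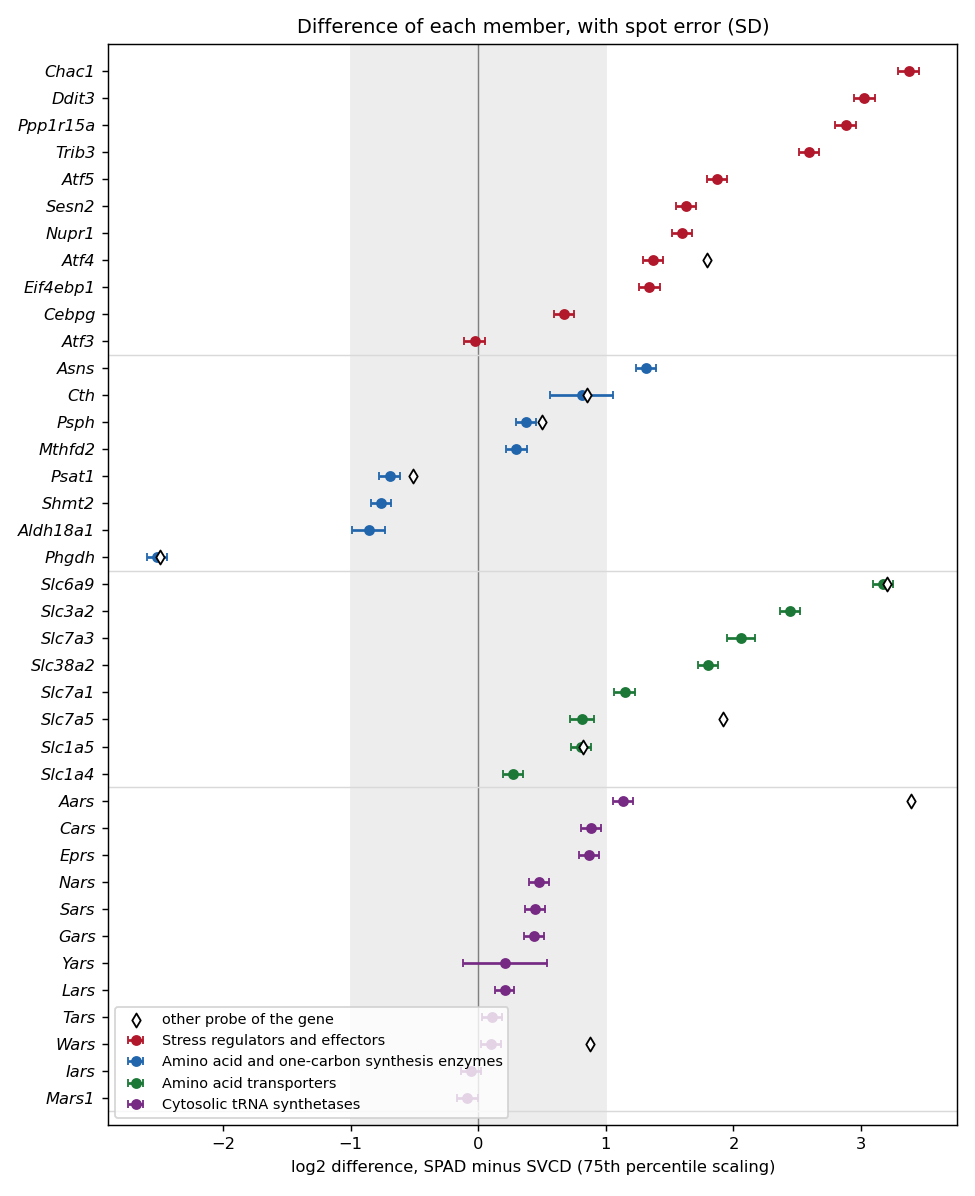
Log2 difference (SPAD minus SVCD, horizontal axis) of each member by role, with spot error (SD) as bars, open diamonds for a second probe of the gene and grey shading for less than 2-fold. Of the 17 members outside the shading, 16 lie to the right and Phgdh, at -2.52, to the left.

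The synthesis enzymes did not move as a block. Asns, which makes asparagine and is a classic ATF4 target, had a signal of 15652 in SPAD, against 6864 in SVCD (2.49-fold higher, 1.31 ± 0.08). Phgdh, the first enzyme of serine synthesis, was the only member at least 2-fold lower in SPAD. Its signal was 639 in SPAD and 3996 in SVCD (5.73-fold lower, -2.52 ± 0.08), and the second probe gave -2.50. Of all genes, 3.01% had a difference as low.

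The next steps of serine synthesis differed less. Psat1, the aminotransferase that follows Phgdh, had 3595 in SPAD and 6352 in SVCD (-0.70 ± 0.08). Psph, the phosphatase that completes the pathway, had 1547 in SPAD and 1301 in SVCD (0.37 ± 0.08). In the main values the 3 enzymes of this pathway lay on both sides of 0, whereas with spike-in scaling Psph was at -0.46 and all 3 were below 0. In the mitochondrial folate cycle, which takes up serine, Shmt2 had 1191 in SPAD and 2207 in SVCD (-0.76 ± 0.08), while Mthfd2 had 1261 in SPAD and 1119 in SVCD (0.30 ± 0.08).

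Aldh18a1, which starts proline synthesis, was dim, with 94.3 in SPAD and 187 in SVCD (-0.86 ± 0.13). Cth, which releases cysteine from cystathionine, was also near the detection limit, at 74.1 in SPAD and 46.2 in SVCD (0.81 ± 0.25). Of the 8 enzymes with a probe, 4 were above 0 and 4 below. In the main values Asns and Phgdh were the only ones 2-fold apart. With spike-in scaling Asns, at 0.47, was the only one of the 8 above 0 and none passed 2-fold upward in SPAD, while Phgdh (-3.36), Aldh18a1 (-1.70), Shmt2 (-1.60) and Psat1 (-1.54) passed 2-fold downward.

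All 8 transporters were above 0 in the main values, and 5 of them were at least 2-fold higher in SPAD. Slc6a9, the glycine transporter GLYT1, had a signal of 6575 in SPAD, against 795 in SVCD (9.03-fold higher, 3.17 ± 0.08), and a second probe gave 3.21. Slc3a2, the heavy chain that carries several amino acid exchangers to the cell surface, was at 106206 in SPAD and 21340 in SVCD (5.43-fold higher, 2.44 ± 0.08). Of its light chains, Slc7a5, which imports leucine and other large neutral amino acids, had 410 in SPAD and 255 in SVCD (0.81 ± 0.09). The second Slc7a5 probe gave 1.92, so the 2 probes lie more than 1 log2 unit apart and only one of them passes 2-fold.

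Both cationic amino acid carriers among the members were higher as well. Slc7a1 had 8798 in SPAD and 4335 in SVCD (2.21-fold higher, 1.15 ± 0.08), and Slc7a3 had 319 in SPAD and 83.5 in SVCD (4.17-fold higher, 2.06 ± 0.11). The SVCD signal of Slc7a3 was dim, and with normexp, another background correction, its difference was 1.39. Slc38a2, the sodium-coupled carrier SNAT2, which amino acid shortage is known to induce, had 10617 in SPAD and 3332 in SVCD (3.48-fold higher, 1.80 ± 0.08). The exchangers of small neutral amino acids differed by less than 2-fold. Slc1a5 had 1560 in SPAD and 976 in SVCD (0.80 ± 0.08), and Slc1a4 had 5409 in SPAD and 4881 in SVCD (0.27 ± 0.08). With spike-in scaling Slc7a1 was at 0.31 and Slc38a2 at 0.96, below 2-fold, and the 3 transporters already below 2-fold had no positive value left.

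The 12 cytosolic tRNA synthetases, which join each amino acid to its tRNA, covered a narrow range of log2 differences, from -0.09 to 1.13. Of these, 10 were above 0 and 2 below, and only Aars, the alanyl enzyme, was at least 2-fold higher in SPAD. Aars had a signal of 14080 in SPAD, against 7005 in SVCD (2.19-fold higher, 1.13 ± 0.08), and with spike-in scaling it was at 0.29. Its other probe, at 21.0 in SPAD and 2.18 in SVCD, was not well above background in SVCD. The cysteinyl enzyme Cars followed, with 12355 in SPAD and 7312 in SVCD (0.88 ± 0.08), and then Eprs, which charges both glutamate and proline tRNA, with 1171 in SPAD and 700 in SVCD (0.87 ± 0.08). With spike-in scaling these 3 were the only synthetases above 0.

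The other synthetases were closer to equal. The asparaginyl enzyme Nars (0.47 ± 0.08), the seryl enzyme Sars (0.45 ± 0.08) and the glycyl enzyme Gars (0.44 ± 0.08) were modestly higher. The signals of Gars were 31685 in SPAD and 25519 in SVCD. For the leucyl enzyme Lars (0.21 ± 0.08), the threonyl enzyme Tars (0.11 ± 0.08), the isoleucyl enzyme Iars (-0.06 ± 0.08) and the methionyl enzyme Mars1 (-0.09 ± 0.08), differences were within about 3 spot errors of 0. The tyrosyl enzyme Yars was dim, at 52.9 in SPAD and 49.8 in SVCD (0.21 ± 0.33). The brighter probe of the tryptophanyl enzyme Wars, which interferon is also known to induce, gave 0.10 ± 0.08, and the other probe 0.88.

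The promoter matches shown above were set beside these differences. Of the members at least 2-fold higher in SPAD, 5 of the 14 with a promoter in the table (35.7%) had the core, and of the other members with a probe 6 of 16 (37.5%). By role, matches were found in 5 of 8 synthetases, 4 of 10 stress regulators and effectors, 2 of 8 synthesis enzymes and 1 of 5 transporters. Chac1, Trib3, Nupr1 and Asns carry the core and had differences of 3.37, 2.59, 1.60 and 1.31. Atf3, Iars, Tars, Yars (dim), Slc1a4 and Gars carry it too, at -0.03, -0.06, 0.11, 0.21, 0.27 and 0.44. Ddit3, Ppp1r15a, Slc3a2 and Slc6a9 have none in this window and were among the genes with the largest differences. Bases further upstream or within the genes were not searched, so these genes may hold the core elsewhere. A link between the core and the differences was not tested.

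The synthetases among the members are those often listed as ATF4 targets, and the remaining ones and their complex partners were counted beside them. Of these 11 genes, 10 were below 0, with a median of -0.45. In the main values 2 (18.2%) passed 2-fold downward in SPAD and 1 (9.09%) upward, where 13.3% and 14.4% of all genes did. With spike-in scaling the median was -1.29, and 10 passed 2-fold downward and 0 upward, where 38.1% and 5.19% of all genes did. Vars, the valyl enzyme, had 450 in SPAD and 1124 in SVCD (-1.20 ± 0.09), and Dars, the aspartyl enzyme, had 265 in SPAD and 630 in SVCD (-1.13 ± 0.09). Rars, the arginyl enzyme, stood apart at 778 in SPAD and 376 in SVCD (1.17 ± 0.09). The 17 mitochondrial synthetases, of which 16 were detected, had a median of -0.14, with 7 above 0 and 9 below, and with spike-in scaling 1 was above 0. No promoter of the 8 remaining cytosolic genes or of the 14 mitochondrial ones in the table held the core.

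**Figure D4:**
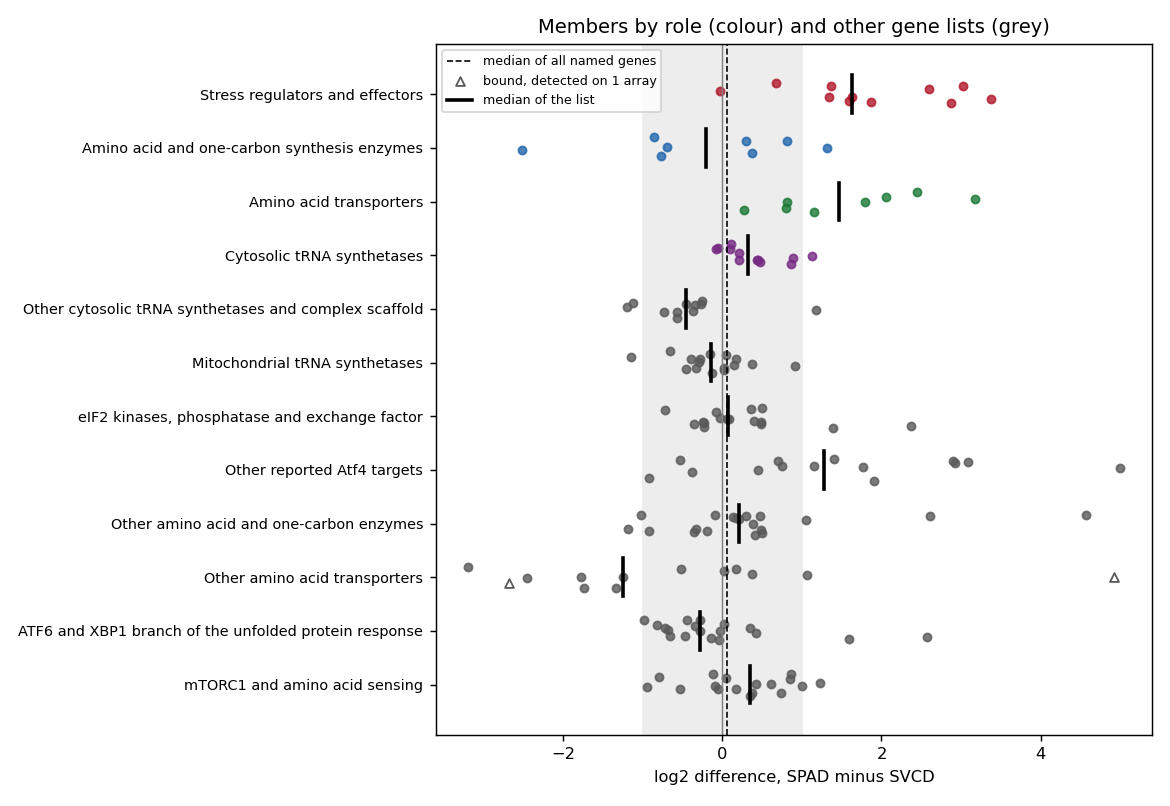
Log2 difference (SPAD minus SVCD, horizontal axis) of each detected gene of the 4 role groups (coloured) and 8 other lists (grey), with black bars for list medians, a dashed line for the median of all named genes and triangles for bounds. The medians run from 1.63 for the stress regulators and effectors to -1.25 for the other amino acid transporters.

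Upstream of Atf4, the eIF2 kinases, phosphatase subunits and exchange factor genes had a median of 0.07. Of these 16 genes, 2 (12.5%) passed 2-fold upward in SPAD and 0 downward, where 14.4% and 13.3% of all genes did. With spike-in scaling the median was -0.77, and 1 passed upward and 5 downward, where 5.19% and 38.1% of all genes did. The higher genes were Impact, whose product restrains the amino acid sensing kinase GCN2, with 14997 in SPAD and 3156 in SVCD (2.37 ± 0.08), and Ppp1r15b, the constitutive counterpart of Ppp1r15a, with 484 in SPAD and 202 in SVCD (1.39 ± 0.11). Other genes reported as ATF4 targets had a median of 1.27, and 8 of the 14 that were detected (57.1%) passed 2-fold upward in SPAD and 0 downward, against 5 upward and 3 downward with spike-in scaling. The cystine importer Slc7a11, which also pairs with Slc3a2, had 5125 in SPAD and 175 in SVCD (4.99 ± 0.11). Gdf15, a secreted stress hormone, had 52051 in SPAD and 7471 in SVCD (2.93 ± 0.08), and Vldlr and Ndrg1 were at 3.09 and 2.89. Several of these genes also answer to other factors: Slc7a11 to the oxidative stress factor NRF2, and Ndrg1 to hypoxia.

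The neighbouring branches of the unfolded protein response, driven by ATF6 and by XBP1 and taken here as 1 list, had a median below 0. Of their 18 genes, 13 were below 0, with a median of -0.28. In the main values 2 (11.1%) passed 2-fold upward in SPAD and 0 downward, where 14.4% and 13.3% of all genes did. With spike-in scaling 1 passed upward and 10 downward, where 5.19% and 38.1% of all genes did. The higher genes were Dnajb9, a chaperone of the endoplasmic reticulum, with 5725 in SPAD and 1055 in SVCD (2.57 ± 0.08), and the stress sensor Ern1, with 1575 in SPAD and 571 in SVCD (1.59 ± 0.09). Amino acid transporters outside the members had a median of the opposite sign to the member transporters, -1.25. Of 11 well above background in both RNAs, 6 (54.5%) passed 2-fold downward in SPAD and 1 (9.09%) upward, where 13.3% and 14.4% of all genes did. With spike-in scaling the median of this list was -2.09, and 7 passed downward and 0 upward, where 38.1% and 5.19% of all genes did. The median was -0.74 with normexp, another background correction, and -0.25 without the filter on dim probes. That last setting takes in 3 genes detected on neither array, and 8 of its 16 genes were above 0 and 8 below. Slc7a8, a light chain of Slc3a2 like Slc7a5, had 938 in SPAD and 5624 in SVCD (-2.46 ± 0.03), and the cationic carrier Slc7a2 had 24.4 in SPAD and 243 in SVCD (-3.19 ± 0.24). Slc1a1, a glutamate and aspartate carrier, was detected in SPAD alone and was at least 30.4-fold higher, and Slc43a1 was detected in SVCD alone, at least 6.43-fold lower in SPAD.

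Markers of several cell types differed as well. Of all genes 14.4% passed 2-fold upward in SPAD and 13.3% downward, or 5.19% and 38.1% with spike-in scaling. Adipocyte markers were higher in SPAD (8 of 9 detected at least 2-fold, summed signal 122334 in SPAD and 35382 in SVCD), as were endothelial markers (7 of 9, 18850 in SPAD and 7054 in SVCD), while the leptin gene Lep was below the detection call in both RNAs. The adipocyte marker Cebpa (-0.43) and the endothelial markers Kdr (-0.49) and Vwf (-0.92) went the other way. With spike-in scaling 7 adipocyte markers passed 2-fold upward and 1 downward, and 7 endothelial markers upward and 2 downward. Fabp4 alone gave 108495 of the adipocyte sum in SPAD and 31257 in SVCD, and the other markers summed to 13839 in SPAD and 4126 in SVCD. Of 7 detected fibroblast and progenitor markers 4 (57.1%) passed 2-fold upward in SPAD and 0 downward (25013 in SPAD and 15976 in SVCD), or 2 higher and 2 lower with spike-in scaling. Among them Thy1 was at 3.12, Dcn at 1.87 and Col1a1 at -0.99. Markers of proliferation were lower in SPAD (6 of 7, 9839 in SPAD and 33914 in SVCD), of macrophages (5 of 8 detected on both arrays, 123816 in SPAD and 209532 in SVCD), of mesothelium (3 of 4, 1014 in SPAD and 11318 in SVCD) and of smooth muscle (5 of 6, 15460 in SPAD and 214486 in SVCD). With spike-in scaling these counts were 7, 6, 4 and 5 in that order. Lyz2 alone gave 98429 of the macrophage sum in SPAD and 84459 in SVCD (0.35), and the other macrophage markers summed to 25387 in SPAD and 125073 in SVCD. The macrophage marker Fcgr1 and the mesothelial markers Upk3b, Lrrn4 and Upk1b were not well above background in SPAD, while 8 macrophage markers and all 6 smooth muscle markers were in both RNAs. In RNA of whole cultures, fewer cells of a type and less RNA per cell cannot be told apart. The part of these markers in the differences of the members was not tested.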

How the data were processed

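The members and gene lists were chosen with earlier results of these data known. RNA from 1 sample per group, 30 ng each, was labelled with Cy3, per the labels' protocols, and the submitters' processing notes name Agilent Feature Extraction 10.7.3.1 for reading the spots. The deposited scanner files hold spot intensity, already background-subtracted, per the file headers, from a single scan of both arrays. The authors also deposited a log2 table whose 2 columns are exactly opposite in sign (39485 rows, to within 0.0001; medians 0.16 and -0.16). Its difference equals that of the scanner intensity plus 0.12, so it is centred per probe. The sources used here do not state how that scaling was chosen.

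Of 44397 spots, 1377 controls and 73 (SPAD) and 85 (SVCD) outlier spots were left out, and repeat spots were averaged, leaving 39425 probes, of which 64.5% in SPAD and 65.6% in SVCD were well above background. No spot was saturated. Probes were named through their transcript by the RefSeq table (GRCm38.p6), 27506 of them (69.8%). Main values were log2 intensity minus the array's 75th percentile, read from a gene's brightest probe. A gene detected in only 1 RNA is given as at least N-fold, measured from the dim value or, if higher, from the lowest detected signal of that array. Spot error came from 305 probes with at least 8 detected repeat spots on an array, in 6 bins of signal (SD 0.06 to 0.23, 0.11 pooled), joined over both arrays. Probes differ in brightness for the same RNA, so the level of one gene is not set against that of another, and summed marker signals are led by the brightest probes. All members are named, and of each other list at most the 4 detected genes with the largest difference of at least 2-fold. Some items are not reported here. The difference calculation was tested on simulated data. Python 3.11.15, numpy 2.4.6, pandas 2.3.3, R 4.3.3 and limma 3.58.1 were used.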

Additional observations from a re-analysis of the deposited data

How the results depend on the processing

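Of the 9 alternatives, 8 kept all 17 members that were 2-fold apart past 2-fold in the same direction, namely the percentile of detected probes, median scaling, quantile normalization, normexp, no filter on dim probes, genes detected on 1 array left out, the mean over probes and the authors' deposited table. Several of these could hardly change a call. All 39 members were well above background on both arrays, so the filter on dim probes and the leaving out of genes detected on 1 array do not touch them. The percentile of detected probes, median scaling and the authors' table move every difference by the same small amount. With median scaling the weakest call, Aars, was at 1.06. Spike-in scaling kept 9 and reversed none of the 17. It gave 8 members past 2-fold upward and 4 downward in SPAD, where 5.19% and 38.1% of all genes passed. The medians with it were -0.031 for all members, 0.79 for stress regulators and effectors, -1.04 for synthesis enzymes, 0.63 for transporters and -0.51 for synthetases. This follows from its construction, since it lowers every difference by 0.84. With normexp (offset 50) the median was 0.62 for all members, which is the value of Slc7a5 (0.81 in the main values). For transporters it was 1.25, between Slc7a1 at 1.12 and Slc7a3 at 1.39, which was at 2.06 in the main values. The offset of 50 is added to every signal, which by construction draws the differences of dim probes toward 0. How much of the change in these members it made was not tested. The mean over probes gave 0.44 for synthetases, through the second probe of Wars, and 17 higher members, through that of Slc7a5. Normexp was run on median signals, a choice made after seeing that the spot columns hold no mean signal, and the planned form on mean signals was not run. No paired analysis was possible because each group has 1 array, which also leaves no replicate to leave out. Dim signals limit Cth, Yars, Aldh18a1 and Slc7a3, whose spot errors were 0.25, 0.33, 0.13 and 0.11.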

Other observations

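Genes of mTORC1 and amino acid sensing had a median log2 difference of 0.34 (17 detected, 11 above 0), and of -0.50 with spike-in scaling (4 above 0). In the main values only Sesn3, a relative of Sesn2, was at least 2-fold apart, with a signal of 195 in SPAD and 91.3 in SVCD (1.22 ± 0.13). This is 5.88% upward in SPAD, where 14.4% of all genes were, and with normexp 0 passed 2-fold. Flcn lay at the limit, with 0.996 on its brightest probe and 1.06 on the other.

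Other amino acid and one-carbon enzymes had a median of 0.21. Of 19 detected, 3 (15.8%) passed 2-fold upward in SPAD and 2 (10.5%) downward, where 14.4% and 13.3% of all genes did. With spike-in scaling the median was -0.63, and 2 passed upward and 6 downward, where 5.19% and 38.1% of all genes did. Gclc, which makes the first intermediate of glutathione, the substrate of Chac1, had 59695 in SPAD and 2754 in SVCD (4.56 ± 0.08). Mthfd1, the cytosolic folate enzyme, had 824 in SPAD and 2046 in SVCD (-1.19 ± 0.08). Ass1, which makes argininosuccinate, had 4013 in SPAD and 2110 in SVCD (1.05 ± 0.08) on its brightest probe and 0.99 on the other.

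The core TGATGNAA was also found in 5 of the 14 other reported ATF4 targets with a promoter in the table (35.7%), in 1 of 14 other amino acid enzymes and in 1 of 12 other transporters. It was in none of the 15 genes of the ATF6 and XBP1 branches or the 17 of mTORC1 and amino acid sensing.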
